A study of Mus musculus with 4 samples.

Results

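The 10 genes described here encode subunits of the ionotropic glutamate receptors: Gria1, Gria2, Gria3 and Gria4 of the AMPA type, Grin1, Grin2a and Grin2b of the NMDA type, and Grik1, Grik2 and Grik4 of the kainate type. They were picked by gene symbol from the 27998 genes measured, and all 10 had counts. Their levels were read in each neuron class of 4 libraries of single nuclei. The nuclei came from the hippocampus of 9-month-old mice of strain B6, and each library pooled the hippocampi of 1 genotype: 7 for WT, 7 for EKO, 8 for P301S and 7 for P301S/EKO. EKO mice lack Apoe, P301S mice carry a transgene for human tau with the P301S substitution, and P301S/EKO mice have both. The transgene is known to be driven by the Prnp promoter, so it is not limited to one neuron class. The study is about apoE and neurodegeneration driven by tau, and its remaining genotypes were not analysed here. Where 4 values follow each other, they stand in the order WT, EKO, P301S, P301S/EKO. With 1 pooled library per genotype there was no replicate, so no test between genotypes was made, and every 95% interval below covers counting error only.

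Ionotropic glutamate receptors are tetramers that open an ion pore when glutamate binds. AMPA receptors carry most fast excitatory current, and those that contain Gria2 pass little calcium. NMDA receptors need the obligatory subunit Grin1 together with Grin2 subunits, pass calcium and start lasting changes of synaptic strength, while kainate receptors act on both sides of the synapse and are best known in the hippocampus at the mossy fibre input to CA3.

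Calcium passage depends on a short loop lining the pore, and the coding sequence of this loop is shown for 6 members. Among these, shares within the family are given further on for Gria1, Gria2 and Grik4. Each line holds 48 bases of coding sequence, 5′ to 3′ on the gene's own strand, from GRCm38 with GENCODE gene models, and the capitals mark the codon at the site that sets calcium passage.
Gria1: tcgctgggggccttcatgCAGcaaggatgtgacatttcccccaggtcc
Gria2: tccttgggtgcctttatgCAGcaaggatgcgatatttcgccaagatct
Gria4: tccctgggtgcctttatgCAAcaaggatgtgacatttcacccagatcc
Grik2: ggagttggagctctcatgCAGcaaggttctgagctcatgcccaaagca
Grik4: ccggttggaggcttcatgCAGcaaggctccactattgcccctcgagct
Grin1: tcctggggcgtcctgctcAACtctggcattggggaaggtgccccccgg
In Gria2 the marked codon is codon 607, at chr3:80706911-80706913 on the minus strand, in coding exon sequence of exon 11. It is the glutamine codon that RNA editing is known to recode to arginine in the transcript, and the genome carries the unedited CAG, as in Gria1, Gria3 and the 3 kainate genes. Gria4 has CAA at this codon, and Grin1 has AAC, an asparagine codon. Over the 48 bases Gria2 shared 91.7% with Gria3, 79.2% with Gria1, 66.7% with Grik4 and 33.3% with Grin1. Grik1 and Grik2 shared 87.5%. The counts are of transcript ends and do not read this codon, so editing was not measured. The members lie on 8 chromosomes, with Gria4 and Grik4 both on chromosome 9, Grin2a and Grik1 both on chromosome 16, and Gria3 on the X chromosome. Gria2 spans chr3:80681450-80802835 and Grik4 spans chr9:42518135-42944493, both on the minus strand.

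Apoe, the targeted gene, stood at 1935 CPM (the count normalised to the total of the class and library, where each unique molecular identifier, UMI, stands for 1 transcript) over all nuclei of the WT library and at 6403 in P301S, against 16.3 in EKO and 19.9 in P301S/EKO. Prnp, whose promoter drives the transgene, was at 374 and 440 CPM in WT and EKO and at 617 and 739 in the libraries with the transgene. After filtering, 5263, 5222, 2865 and 5327 nuclei were left, with medians of 1904, 1445, 2142 and 1424 UMIs per nucleus, so both libraries without Apoe were shallower. Libraries shared 19 to 69 barcodes per pair, at most 1.153% of the smaller library. Clusters named from markers gave 5 neuron classes: CA1-like with 2422 nuclei, CA2- or CA3-like with 1621, dentate granule-like with 3182, subicular or cortical excitatory-like with 3910 (3 clusters) and inhibitory-like with 2108. The markers of each class summed highest in that class in every library, but in the 161 dentate granule-like nuclei of P301S that sum was 627 CPM, against 1229 to 1592 in the other libraries. In subicular or cortical excitatory-like nuclei of P301S it was 1258 CPM, against 1884 to 1926. P301S had the lowest sum in each excitatory class. A further neuronal cluster of 1594 nuclei, led by Teddm3, Dcn and Nts, could not be named and stayed outside the classes. Within the inhibitory-like class, 171 nuclei took no interneuron name: 77, 28, 35 and 31 of 499, 560, 519 and 530. Such nuclei were thus most frequent in WT, and their part in the inhibitory-like ratios was not tested. RNA of other cells was present in each class: the 9 microglia markers summed to 93.1, 109, 363 and 210 CPM in CA1-like nuclei, highest in P301S, and the 7 oligodendrocyte markers to 597, 351, 824 and 888. In the other direction, microglia-like nuclei carried neuronal genes at 78.0% to 89.4% of the level over all nuclei, so glia-like nuclei were no clean background. Between neuron classes, Gad1 and Gad2, the enzymes of GABA synthesis, reached 4.14% to 6.29% of their inhibitory level in CA1-like nuclei and 9.95% to 15.3% in dentate granule-like nuclei (62.1% to 76.7% of their level over all nuclei in the latter), and Slc17a7, the glutamate transporter of excitatory vesicles, 11.9% to 17.0% of its CA1-like level in inhibitory-like nuclei.

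The members ranged from genes at like levels in every class, through graded ones, to genes held mainly in 1 or 2 classes. Grik1 and Gria4 differed most between classes, with mean levels over the libraries 12.7-fold and 8.58-fold higher in the highest class than in the lowest. Grin1 differed least, at 1.18-fold. In 6 of the 10 members (Gria1, Gria4, Grin2a, Grin2b, Grik1 and Grik4) the same class was highest in all 4 libraries. Counting takes place at transcript ends, but whether introns were counted was not given, and that could bear on long genes. Levels are therefore compared between classes and libraries. Between genes, only shares of UMIs within a family are given, and these too are compared between classes and libraries.

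**Figure D1:**
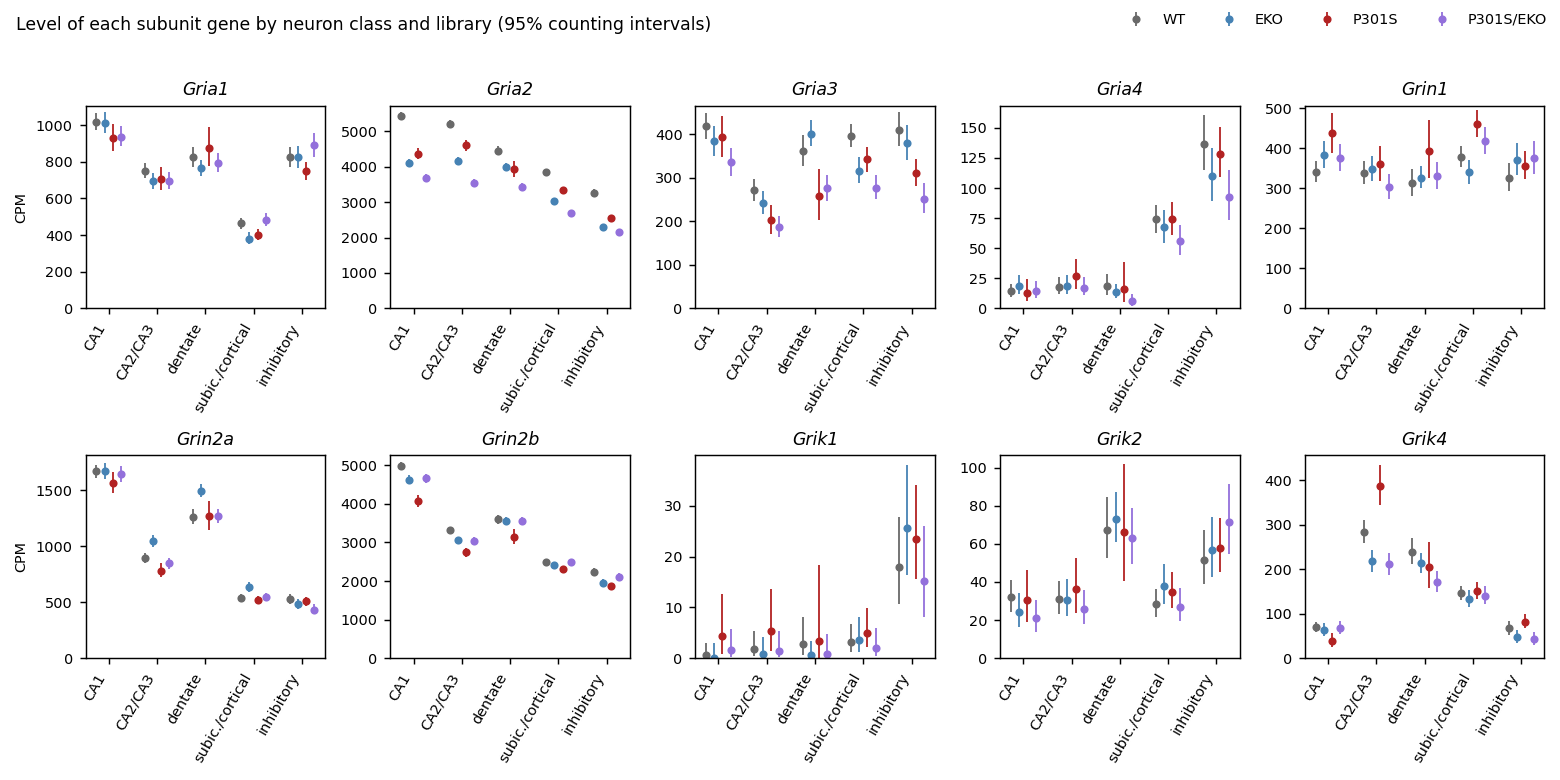
Level of each of the 10 subunit genes in CPM (vertical axis, from 0, a separate scale per gene) in the 5 neuron classes (horizontal axis); each point is 1 library, coloured by genotype, and bars are 95% counting intervals. Gria1, Grin2a and Grin2b peak in CA1-like nuclei, Grik4 in CA2- or CA3-like nuclei, and Gria4 and Grik1 in inhibitory-like nuclei, while Grin1 is nearly flat.

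Among the AMPA genes, Gria1, the subunit whose insertion at synapses is best known from long-term potentiation in CA1, was highest in CA1-like nuclei. There it stood at 1018, 1012.5, 931 and 938 CPM, and none of these values overlapped with those of any other class. Inhibitory-like (749 to 890 CPM) and dentate granule-like nuclei (766 to 878) came next and overlapped, and subicular or cortical excitatory-like nuclei were lowest, at 381 to 482.

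Gria2, the subunit that keeps AMPA receptors from passing calcium, was high in every class. CA1-like nuclei held 5437, 4105, 4362 and 3684 CPM. CA2- or CA3-like nuclei held 5202, 4167, 4607 and 3536 CPM, so the 2 pyramidal classes overlapped. Inhibitory-like nuclei were lowest in each library, with 3252, 2294, 2547 and 2149. The library moved Gria2 more than it moved the order of the classes: WT was highest and P301S/EKO lowest in all 5.

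Gria3, an X-linked AMPA subunit, showed the least separation of classes among the AMPA genes. CA1-like nuclei held 419, 384, 393 and 336 CPM, overlapping with the inhibitory-like values of 411, 379, 311 and 252. CA2- or CA3-like nuclei were lowest in every library, at 187 to 272 CPM. Gria4, known from fast-spiking interneurons, separated the classes most: it was at 136, 110, 129 and 92.3 CPM in inhibitory-like nuclei and at 55.9 to 73.9 in subicular or cortical excitatory-like nuclei. The other 3 classes lay between 5.94 and 26.7 CPM and did not differ beyond their spread.

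As a share of the UMIs of Gria1 to Gria4, Gria2 made up 78.9%, 74.4%, 76.5% and 74.1% in CA1-like nuclei. In inhibitory-like nuclei the share was 70.3%, 63.6%, 68.2% and 63.5%, below every excitatory class in each library. The interneuron groups were not alike. Sst-like nuclei (486 in all, named for the peptide somatostatin) had 61.9%, 55.9%, 60.2% and 54.7%, and Lamp5-like nuclei (362) had 59.0%, 56.2%, 60.1% and 55.1%. Pvalb-like nuclei (555, of the fast-spiking kind) had 59.8% to 66.9%. Vip- or Cnr1-like nuclei (534) had 77.0% to 82.5%, in the range of the excitatory classes. The interneuron groups also split by Gria3, which was at 712, 601, 504 and 367 CPM in Sst-like nuclei but at 61.9 to 99.9 in Vip- or Cnr1-like nuclei, and by Gria4, at 131 to 199 in Pvalb-like and 54.7 to 106 in Vip- or Cnr1-like nuclei. These shares come from UMIs that were not corrected for free RNA of excitatory neurons, whose level in each interneuron group was not measured.

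**Figure D2:**
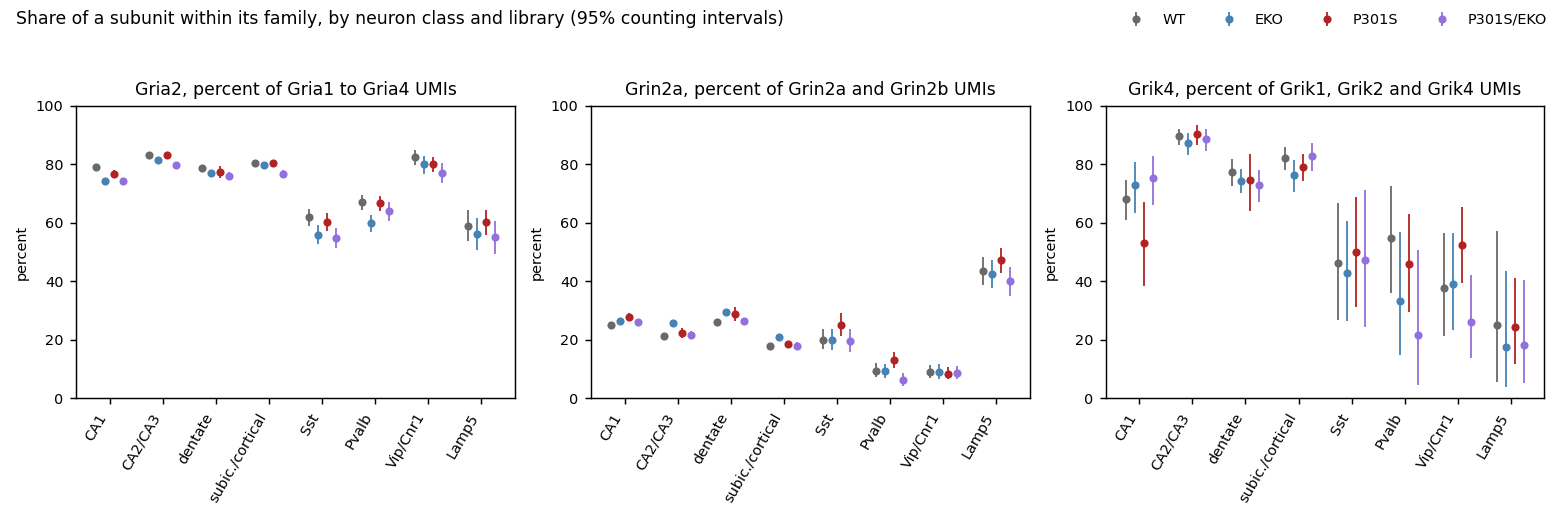
Share of Gria2 in the AMPA UMIs (left), of Grin2a in the Grin2a and Grin2b UMIs (middle) and of Grik4 in the UMIs of Grik1, Grik2 and Grik4 (right), in percent from 0 to 100, for 4 excitatory classes and 4 interneuron groups; each point is 1 library and bars are 95% counting intervals. Sst-like and Lamp5-like nuclei have the lowest Gria2 shares, Lamp5-like nuclei the highest Grin2a shares, and CA2- or CA3-like nuclei the highest Grik4 shares.

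Among the NMDA genes, Grin1, which every NMDA receptor needs, ranged only from 303 to 460 CPM over the 20 profiles of 5 classes and 4 libraries. No class stood outside the range of its neighbours. Grin2a, the subunit that gives NMDA receptors fast decay and that gains weight with age, separated the classes. CA1-like nuclei held 1669, 1671, 1569 and 1646 CPM, dentate granule-like nuclei 1265 to 1495, CA2- or CA3-like nuclei 783 to 1048, and the remaining classes 434 to 634. The 3 highest classes did not overlap with each other or with the rest. Grin2b, the subunit that binds CaMKII and gives slow decay, held 4990.0, 4631, 4081 and 4665 CPM in CA1-like nuclei, against 1860.4 to 2242 in inhibitory-like nuclei, the lowest class. Dentate granule-like and CA2- or CA3-like nuclei overlapped, between 2745 and 3600 CPM.

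The 2 Grin2 genes moved together over the 20 profiles (Pearson r = 0.95 on log2(CPM + 1), a description over profiles that share libraries), yet their ratio differed between interneuron groups. Grin2a made up 43.4%, 42.3%, 47.1% and 39.9% of the Grin2a and Grin2b UMIs in Lamp5-like nuclei. In Pvalb-like nuclei the share was 9.38%, 9.18%, 12.9% and 6.12%, and in Vip- or Cnr1-like nuclei 8.38% to 8.94%. The excitatory classes lay between, at 17.8% to 29.6%. In CPM, Grin2a stood at 1551, 1325, 1361 and 1248 in Lamp5-like nuclei, close to dentate granule-like nuclei, and at 213, 189, 263 and 135 in Pvalb-like nuclei. Grin2b differed little between these groups, at 1527 to 2021 CPM in Lamp5-like and 1778 to 2073 in Pvalb-like nuclei. Lamp5-like and Pvalb-like nuclei thus overlapped in Grin2b and did not overlap in Grin2a.

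Among the kainate genes, Grik1, which pairs with other kainate subunits in interneurons, was at 17.9, 25.6, 23.5 and 15.2 CPM in inhibitory-like nuclei. In the other 4 classes it did not exceed 5.34 CPM, and CA1-like nuclei of EKO had no UMI, which allows up to 2.41 CPM. Within the interneurons, Lamp5-like nuclei had the highest level in each library, from 36.6 to 51.7 CPM. After each nucleus was thinned to 1000 UMIs, 1.94% to 2.68% of inhibitory-like nuclei had a Grik1 UMI, against 2.45% to 5.20% unthinned. In microglia-like nuclei, which should lack the gene, the share was 0% to 0.709% thinned and 0% to 3.45% unthinned, at median depths of 1805 to 3883 UMIs against 1420 to 2024 in the inhibitory-like class. Thinning left out 0 to 116 inhibitory-like nuclei per library for having fewer UMIs.

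Grik2, a kainate subunit that is itself edited at the pore site, was highest in dentate granule-like nuclei of WT, EKO and P301S, with 67.3, 73.2 and 66.0 CPM. The exception was P301S/EKO, in which inhibitory-like nuclei had 71.3 and dentate granule-like nuclei 62.8, so these classes did not differ beyond their spread. The other 3 classes had 20.9 to 37.8 CPM. Grik4, a high-affinity subunit of mossy fibre synapses that works only together with subunits such as Grik2, was highest in CA2- or CA3-like nuclei: 283, 218, 388 and 211 CPM. Dentate granule-like nuclei, whose axons are the mossy fibres, followed with 240, 214, 205 and 171. Subicular or cortical excitatory-like nuclei had 134 to 151, and CA1-like (38.9 to 69.1) and inhibitory-like nuclei (43.3 to 82.4) were lowest and overlapped. Of the UMIs of Grik1, Grik2 and Grik4 alone, without the other kainate genes Grik3 and Grik5, Grik4 took 87.3% to 90.4% in CA2- or CA3-like nuclei and 33.3% to 50.3% in inhibitory-like nuclei. After thinning, 19.1% to 36.4% of CA2- or CA3-like nuclei had a Grik4 UMI (41.4% to 71.2% unthinned). Microglia-like nuclei had one in 11.2% to 19.0% after thinning, which nearly reaches the lower CA2- or CA3-like shares, so the shares of nuclei are not read further.

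By a fixed rule, the genes whose log2(CPM + 1) over the 20 profiles was most like a member's were listed, with likeness as Pearson's r. Zeb2 was closest to Gria1 (0.97), Epha4 to Gria2 (0.90), Lactb to Gria3 (0.81) and Frmd3 and Cit to Gria4 (0.97 each). Per1 was closest to Grin1 (0.81), Grin2b to Grin2a (0.95), Grin2a and Atp2b1 to Grin2b (0.95 each), Igf1 to Grik1 (0.95), Thsd7a to Grik2 (0.95) and 6530403H02Rik to Grik4 (0.92). The 4 libraries and their depths are shared by all of these profiles.

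Between genotypes, most member levels differed by less than 1.5-fold. A member in a class was compared where it had at least 50 UMIs over both libraries, and was counted as apart at 1.5-fold. For P301S over WT, 1 of 43 pairs of member and class was apart, beside a background of 15.1% over all genes with as many UMIs. For P301S/EKO over P301S it was 3 of 41 (background 16.1%), for EKO over WT 0 of 44 (10.2%), and for P301S/EKO over EKO 1 of 42 (9.09%). Among genes with at least 500 UMIs, which count with less error, the backgrounds were 5.77%, 6.74%, 4.57% and 4.02%. The member pairs lie on both sides of 500 UMIs, so neither background matches them in depth. By the looser rule that the larger level exceed the smaller by 25%, 9, 8, 9 and 7 pairs were apart in the same order of comparisons (backgrounds 40.3%, 41.7%, 33.4% and 30.8%). The median log2 ratio of the members was -0.09, -0.14, -0.11 and -0.13, against 0.11, -0.09, 0.03 and -0.02 for all genes. For genes with at least 500 UMIs it was -0.001, 0.03, 0.06 and -0.08, so the distance of the members from the background depends on depth. Median-of-ratios scaling shifts P301S over WT by -0.20 to -0.10 log2 and P301S/EKO over P301S by 0.07 to 0.22, so small ratios in these 2 comparisons depend on the scaling; it turned the direction of 4 of 43 and 5 of 41 pairs, and of 2 pairs in each of the other comparisons. For P301S/EKO over P301S the members were higher in 15 and lower in 26 pairs as CPM, and higher in 20 and lower in 21 after this scaling.

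**Figure D3:**
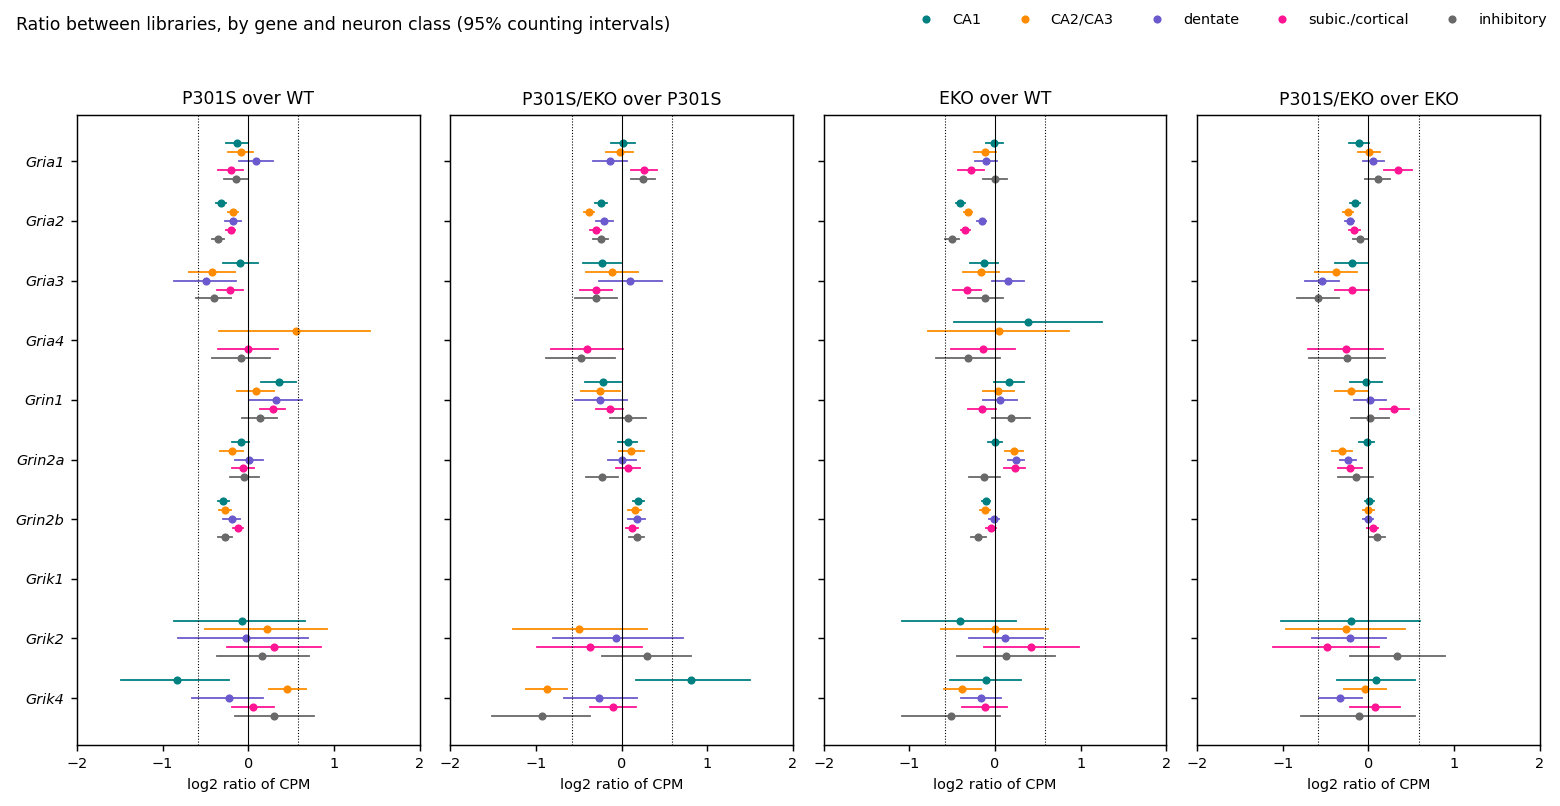
Log2 ratio of CPM between libraries (horizontal axis) for each gene (rows) and neuron class (colours) with at least 50 UMIs over both libraries, in 4 comparisons; bars are 95% counting intervals and dotted lines mark 1.5-fold. Points of Gria2 lie left of 0 in all 4 panels, points of Grin2b lie left of 0 for P301S over WT and right of 0 for P301S/EKO over P301S, and Grik4 has the widest spread between classes.

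Gria2 was lower in every class in all 4 comparisons, by a small amount. For P301S over WT the ratio was 0.80 (0.77 to 0.84) in CA1-like and 0.78 (0.75 to 0.82) in inhibitory-like nuclei, and for EKO over WT 0.76 (0.73 to 0.78) and 0.71 (0.67 to 0.74). P301S/EKO over P301S gave 0.77 to 0.87 over the 5 classes, and P301S/EKO over EKO 0.85 to 0.94. The intervals lay below 1 in 5 of 5 classes in each comparison, and the direction held under median-of-ratios scaling, although for P301S/EKO over P301S the scaled ratio came to 0.99 in dentate granule-like and 0.95 in CA1-like nuclei. The comparisons share libraries, so the finding is 1 order of libraries: WT first, P301S/EKO last, and EKO and P301S between. The same order of first and last held in microglia-like nuclei, where Gria2 was at 3412, 2537, 2287 and 2151 CPM, and over all nuclei, at 4224, 3502, 3056 and 2941. The part of library-wide RNA in the neuronal values was not tested. The part of depth was not tested either.

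The Gria1 share of AMPA UMIs was lowest in WT or near it and highest in P301S/EKO in each class. Gria2 makes up most of these UMIs, so a lower Gria2 raises the Gria1 share by arithmetic. Gria1 made up 14.8% of AMPA UMIs in CA1-like nuclei of WT and 18.3% in EKO, and 16.3% in P301S and 18.9% in P301S/EKO. In Sst-like nuclei it was 21.3% and 26.1%, then 24.1% and 32.9%. Each of the 5 classes had a higher Gria1 share in EKO than in WT and in P301S/EKO than in P301S, although in dentate granule-like nuclei the values were close, at 14.6% and 14.8%, then 17.3% and 17.7%. It was also higher in P301S/EKO than in EKO in all 5 classes, and higher in P301S than in WT in all but the subicular or cortical excitatory-like class, where the values were 9.68% and 9.69%. The level of Gria1 itself gave ratios of EKO over WT from 0.82 to 1.00 and of P301S/EKO over P301S from 0.91 to 1.20, highest in subicular or cortical excitatory-like nuclei (1.20, 1.08 to 1.33).

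**Figure D4:**
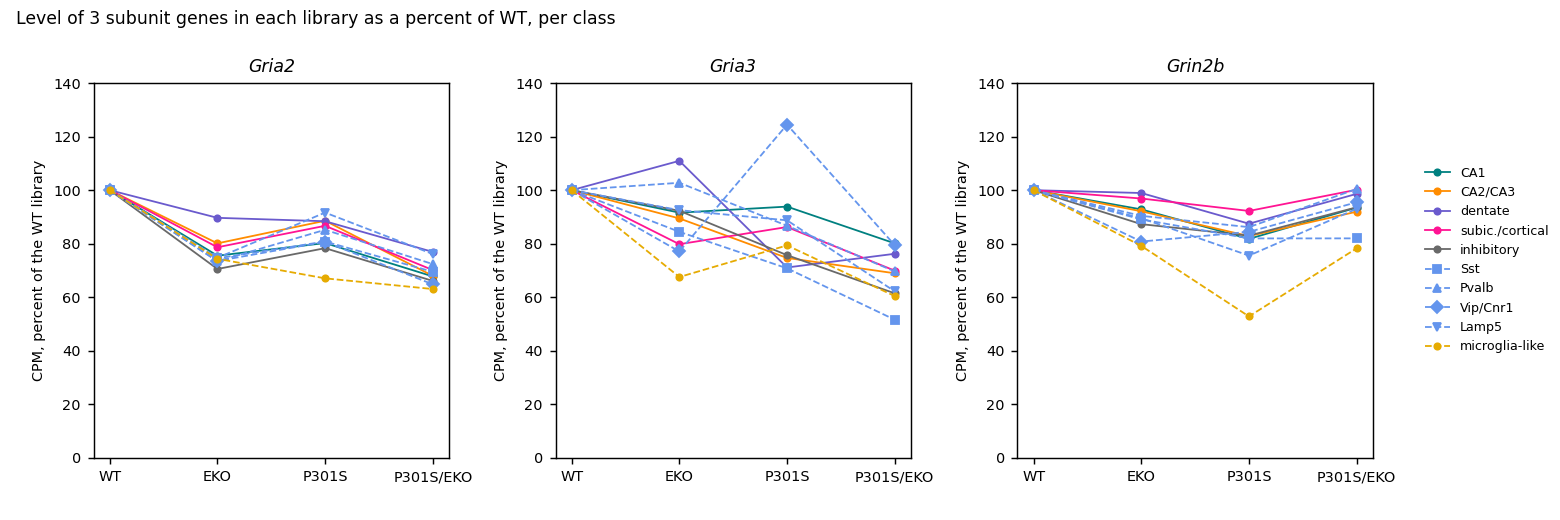
Level of Gria2, Gria3 and Grin2b in each library as a percent of the WT library (vertical axis, from 0), one line per class: 5 neuron classes, 4 interneuron groups (dashed blue, told apart by marker shape) and microglia-like nuclei (dashed yellow). Gria2 is lowest in P301S/EKO in all 5 neuron classes, Grin2b is lowest in P301S in those classes, and microglia-like nuclei are lowest in the same libraries, with a deeper dip of Grin2b.

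Gria3, like Gria2, was lower in both libraries with the transgene when each was set against the library without it and with the same Apoe status. P301S over WT gave 0.71 (0.55 to 0.91) in dentate granule-like, 0.75 (0.62 to 0.90) in CA2- or CA3-like and 0.76 (0.66 to 0.87) in inhibitory-like nuclei. P301S/EKO over EKO, which shares no library with it, gave 0.69 (0.60 to 0.78), 0.77 (0.65 to 0.91) and 0.67 (0.56 to 0.79). The last of these was the only pair of that comparison past 1.5-fold, and it fell short of that fold with doublets kept or with equal weight per nucleus. Gria3 was below 1 in 5 of 5 classes in both comparisons, 4 of them with intervals below 1 in each. These 3 classes were the only pairs of any member at least 25% apart in the same direction in both comparisons, 7.14% of 42 pairs beside 6.98% over all genes. Because Gria3 is X-linked, sex-linked genes were read too. Xist, the RNA of the silenced X chromosome in females, was at 5.75 to 9.78 CPM over all nuclei, while Y-linked Eif2s3y was at 553, 295, 512 and 265 CPM and Ddx3y at 179, 106, 224 and 101. The Y-linked genes were thus lower in both libraries without Apoe, and the part of sex make-up in the Gria3 values was not tested.

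Grin2b was lowest in the P301S library in all 5 classes. P301S over WT gave 0.82 (0.78 to 0.85) in CA1-like, 0.83 (0.79 to 0.87) in CA2- or CA3-like, 0.87 (0.81 to 0.94) in dentate granule-like, 0.92 (0.88 to 0.96) in subicular or cortical excitatory-like and 0.83 (0.78 to 0.88) in inhibitory-like nuclei. In P301S/EKO it was 1.09 to 1.14 times P301S, and P301S/EKO over EKO gave 1.00 to 1.07, so Grin2b was lower beside the transgene in the libraries with Apoe and about equal in those without. Whether these 2 differences differ was not tested. Microglia-like nuclei of P301S were also lowest, at 1648 CPM against 3122, 2472 and 2443 in WT, EKO and P301S/EKO. Grin1 was higher in P301S than in WT in 5 of 5 classes, at 1.06 to 1.28, of which 1 class turned below 1 under median-of-ratios scaling. Grin2a was above WT in EKO in dentate granule-like (1.18, 1.11 to 1.26), CA2- or CA3-like (1.17, 1.09 to 1.26) and subicular or cortical excitatory-like nuclei (1.17, 1.07 to 1.28), and the same 3 classes were lower in P301S/EKO than in EKO, at 0.81 to 0.86. CA1-like nuclei, where Grin2a is highest, gave 1.00 (0.95 to 1.06) and 0.98 (0.93 to 1.05).

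Grik4 accounted for 4 of the 5 pairs past 1.5-fold, and the direction depended on the class. In CA2- or CA3-like nuclei it was at 388 CPM in P301S and 211 in P301S/EKO, a ratio of 0.54 (0.46 to 0.64), and the call held under 12 of 12 alternatives. In inhibitory-like nuclei the same comparison gave 82.4 and 43.3 CPM, a ratio of 0.52 (0.35 to 0.77), which held under 11 of 11. EKO over WT pointed the same way, at 0.77 (0.66 to 0.89) in CA2- or CA3-like and 0.70 (0.47 to 1.04) in inhibitory-like nuclei. Those were the only pairs of any member at least 25% apart in the same direction in both comparisons of Apoe loss, 4.88% of 41 pairs beside 9.27% over all genes. In both classes P301S had the highest level of the libraries. P301S over WT gave 1.37 in CA2- or CA3-like and 1.23 in inhibitory-like nuclei, and P301S/EKO over EKO gave 0.97 and 0.92. CA1-like nuclei went the other way: 27 UMIs (38.9 CPM) in P301S stood against 132 (69.1) in WT and 85 (68.3) in P301S/EKO. The ratios were 0.56 (0.36 to 0.86) for P301S over WT and 1.76 (1.13 to 2.82) for P301S/EKO over P301S. Both calls rest on those 27 UMIs, and both were lost with doublets kept, at clustering resolution 2 and after thinning, the first also with free RNA gauged within neurons. In dentate granule-like nuclei the 4 ratios ran from 0.80 to 0.89, and only P301S/EKO over EKO had an interval below 1 (0.67 to 0.95).

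The sparse members Gria4, Grik1 and Grik2 separated few libraries. Grik1 reached 50 UMIs in no pair of class and comparison. Every Grik2 interval included 1, as did every Gria4 interval but that of inhibitory-like nuclei for P301S/EKO over P301S, at 0.72 (0.54 to 0.95). A difference of the size seen for Gria2 was not detectable for Grik1 and Grik2 at this depth.

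Over all members, the sign of P301S over WT matched that of P301S/EKO over EKO in 28 of 42 pairs (66.7%, against 52.0% over all genes), and that of EKO over WT matched P301S/EKO over P301S in 27 of 41 (65.9%, against 54.4%). Gria2 and Gria3 matched in every class for both factors. Each member counts once per class, so the pairs are not independent and these genes weigh on both shares. The pairs of all genes were not matched to the members in depth. No pair was past 1.5-fold in both comparisons of either factor.

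The rest of the glutamate receptor machinery was read from lists chosen with earlier results of these data known. Ratios and counts of the lists are given as CPM, without median-of-ratios scaling. Of the auxiliary subunits, which traffic and gate AMPA and kainate receptors, 9 pairs were higher and 2 lower of 37 for P301S over WT (background 11.2% higher and 3.83% lower). The direction was mostly turned for P301S/EKO over P301S, which shares the P301S library, with 2 higher and 6 lower of 34 (4.52% and 11.6%). Cnih3, a cornichon protein that slows AMPA receptor closing, stood 2.34-fold higher in P301S than in WT in CA1-like nuclei (89.3 against 38.2 CPM) and 2.42-fold higher in dentate granule-like nuclei. In P301S/EKO the CA1-like level was 48.2 CPM. Shisa7 in dentate granule-like nuclei of P301S stood at 2.47 times WT, and Cacng3, a TARP that binds AMPA receptors, was at 0.42 of WT there, on 6 UMIs in P301S. EKO over WT gave 4 higher and 0 lower of 40 (background 4.76% and 5.48%). Cacng7 (1.69, 1.10 to 2.60) and Gsg1l (1.55, 1.01 to 2.37) were higher in subicular or cortical excitatory-like nuclei. Neto1, a kainate and NMDA receptor partner, was higher in inhibitory-like nuclei (1.63, 1.09 to 2.47). P301S/EKO over EKO gave 1 higher and 0 lower of 36 (5.27% and 3.82%).

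Scaffold and anchoring proteins of the excitatory synapse gave 11 higher and 0 lower of 65 for P301S over WT, and 2 higher and 8 lower of 64 for P301S/EKO over P301S. Over all genes the shares were 11.2% higher and 3.83% lower, then 4.52% and 11.6%, which the second count is close to. Dlg4, the PSD-95 scaffold, was at 81.1 CPM in WT and 130 in P301S in CA1-like nuclei, a ratio of 1.60 (1.22 to 2.09). Shank1, which links receptor scaffolds to actin, stood at 812 CPM in dentate granule-like nuclei of P301S and 526 in WT, a ratio of 1.54 (1.32 to 1.80). Median-of-ratios scaling shifts P301S over WT by -0.18 log2 in CA1-like and -0.19 in dentate granule-like nuclei, which puts both ratios below 1.5-fold. Microglia and oligodendrocyte markers were also higher in P301S than in WT, and their part in these ratios was not tested. For EKO over WT 4 were higher and 1 lower of 65 (background 4.76% and 5.48%). Those higher included Shank1 in CA1-like nuclei, at 1097 CPM in WT and 1701 in EKO, a ratio of 1.55 (1.46 to 1.65). Shank1 was not particular to these classes or genotypes: WT had the lowest level in every class. In inhibitory-like nuclei, for example, it was at 837, 1151, 919 and 1231 CPM. For P301S/EKO over EKO 1 of 65 was higher (background 5.27% higher and 3.82% lower), Shank2 in CA2- or CA3-like nuclei, at 2.01 (1.15 to 3.62).

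The RNA editing enzymes gave 4 higher of 11 for P301S over WT and 4 lower of 11 for P301S/EKO over P301S, beside 11.2% higher and 11.6% lower over all genes. Most of these pairs were Adarb1 in different classes, the rest Adar, and both comparisons share the P301S library. EKO over WT gave 0 higher and 0 lower of 12 (background 4.76% and 5.48%). P301S/EKO over EKO gave 0 higher and 1 lower of 11 (5.27% and 3.82%). In CA2- or CA3-like nuclei Adarb1, the enzyme known to edit the Gria2 pore codon shown above, stood at 50.2, 67.5, 98.8 and 39.9 CPM. P301S was highest and P301S/EKO lowest, with ratios of 1.97 (1.42 to 2.72) for P301S over WT, 0.40 (0.28 to 0.58) for P301S/EKO over P301S and 0.59 (0.41 to 0.84) for P301S/EKO over EKO. Adar was at 49.0 CPM in WT and 88.1 in P301S, a ratio of 1.80 (1.28 to 2.52), in the same class.

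Of the other ionotropic genes, 1 pair was higher of 15 for P301S over WT and 3 lower of 15 for P301S/EKO over P301S, beside 11.2% and 11.6% over all genes. EKO over WT had 1 higher and 2 lower of 16 (4.76% and 5.48% over all genes). Grik3, a further kainate subunit, was at 23.6 CPM in WT and 45.3 in P301S in subicular or cortical excitatory-like nuclei, 1.92-fold higher, and at 43.4 in EKO. Grik5, the usual partner of Grik2, was at 0.65 (0.50 to 0.86) of P301S in CA1-like nuclei of P301S/EKO. Grid1, a delta subunit that binds cerebellin proteins, was at 0.60 (0.40 to 0.87) of WT in CA2- or CA3-like nuclei of EKO. The metabotropic receptors, which signal through G proteins, gave 1 higher of 20 for P301S over WT (Grm7 in CA1-like nuclei, 1.51-fold), 1 higher of 19 for P301S/EKO over P301S (Grm2 in subicular or cortical excitatory-like nuclei, 1.93-fold), 1 lower of 20 for EKO over WT and 1 higher of 19 for P301S/EKO over EKO. Over all genes the matching shares were 11.2%, 4.52%, 5.48% and 5.27%, so each of these counts was near or below the background.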

How the data were processed

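Single-nucleus 10x 3′ libraries of hippocampus were measured, 1 per genotype. The authors deposited UMI counts as whole numbers, 27998 genes by barcodes. The submitters' processing notes name Cell Ranger, Seurat and mm10; versions, and whether introns were counted, were not given in the sources used here. A barcode was kept from 200 genes upward if no more than 5% of its UMIs were mitochondrial, and 242, 238, 69 and 249 likely doublets (highest Scrublet scores, 0.8% per 1000 barcodes, since its own threshold called 1 or none) were removed in WT, EKO, P301S and P301S/EKO. Genes of glutamate receptors and their auxiliary subunits, mitochondrial and sex-linked genes, Mapt, Prnp and Apoe stayed out of the clustering (2000 variable genes, 30 components, 15 neighbours, Leiden resolution 1; scanpy 1.11.5, Python 3.11.15). Of 16 clusters, those with at least 3 markers of a set 1.5-fold up could be named. The leading genes of the cluster also had to hold a marker of that set, and no more of another set. Counts were summed per class and library and scaled to CPM; ratios are plain CPM ratios. Intervals are 95%: exact Poisson for levels, exact conditional binomial for ratios, Clopper-Pearson for shares; a count of 0 is limited by 3 counts. Median log2 ratios of members and of all genes were taken without a prior count. The code was tested on simulated data. Each list names, per comparison, up to 4 genes at least 1.5-fold apart with an interval beyond 1; the members and lists were chosen with earlier results of these data known. Some genes and sequences are not reported here.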

Additional observations from a re-analysis of the deposited data

How the results depend on the processing

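No paired analysis was possible because each genotype has 1 library. No direction among the 5 called ratios was turned by any of 8 planned and 4 added alternatives; the added ones were chosen after seeing the data. Main counts of pairs at least 1.5-fold apart were 1 for P301S over WT, 3 for P301S/EKO over P301S, 0 for EKO over WT and 1 for P301S/EKO over EKO. In this order they became 14, 12, 8 and 8 with free RNA subtracted by the microglia-like level (which removes neuronal signal too), 8, 5, 5 and 3 with free RNA gauged within neurons, and 4, 10, 2 and 5 with no minimum above 1 UMI. P301S over WT gave 3 with median-of-ratios scaling and 2 with at least 500 genes per nucleus, doublets kept, or nuclei thinned to 1000 UMIs. P301S/EKO over P301S gave 5 with equal weight per cluster. P301S/EKO over EKO gave 2 with at least 500 genes per nucleus or resolution 2, and 0 with equal weight per nucleus, where EKO over WT gave 1. The cause of these moves was not tested. In the class order, 106 of 120 levels moved by less than the spread between libraries; 10 of the other 14 did so under free RNA subtraction, which raised every level. Depth limits Gria4, Grik1 and Grik2, and no replicate exists to gauge the spread between pools of mice.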
